A study of Mus musculus with 8 samples.

Results

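Clone 8 was compared with clone 4 of a mouse line in epiblasts of embryonic day 5.5, over all 8 of the 8 libraries in the deposited count table. The 4 libraries named for clone 8 were set against the 4 named for clone 4, with the treatment of the embryos as an additive term, and genes were described across the table. All embryos were Sox2Cre;CRAFR26, a line labelled as one in which 4-hydroxytamoxifen (4OHT) induces the kinase ERK, and Sox2Cre places Cre recombinase under Sox2 regulatory sequences, which act in the epiblast. Per the treatment labels, embryos of each clone were cultured for 4 h with ethanol vehicle or with 250 nM 4OHT, in 2 replicate libraries per clone and condition; the titles of the vehicle libraries give 0h instead. Each library held the RNA of 10 pooled epiblasts, freed of extraembryonic layers by microdissection, and was made from 7 ng of RNA. The labels name clone 4 and clone 8 without saying what else sets them apart, so the clone and any dam, litter or collection day that went with it cannot be told apart. The labels do not say that the replicates came from separate litters, so the p-values measure only the spread between these pools. In such pools, fewer cells of a type and less RNA per cell cannot be told apart.

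The epiblast is the layer of the early post-implantation embryo from which the whole body forms, and Pou5f1, Sox2, Nanog and their partners keep its cells pluripotent. It is wrapped by the visceral endoderm, an absorptive layer that expresses apolipoproteins and transport proteins, and capped by the extraembryonic ectoderm, a trophoblast tissue. Cells of the epiblast divide fast and rely on glycolysis and on their own synthesis of sterols and fatty acids, which the transcription factors Srebf1 and Srebf2 switch on when membrane sterol is low.

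The vehicle libraries held 33341813 to 37960284 counts each, and totals with 4OHT ran from 56384556 to 72497719 counts. Defining markers of the epiblast were present in every library: in counts-per-million (CPM), Pou5f1 stood at 435 to 888 and Dnmt3b at 2409 to 3188 CPM. Replicates correlated at 0.955 (4OHT clone 8) to 0.981 (vehicle clone 4) in log2 CPM. The 4OHT libraries of clone 8 stood apart from the others and from each other. The first principal component of the 2000 most variable genes held 27.6% of the variance. It placed these libraries at 67.1 and 27.1 and the other 6 between -27.6 and -3.53. The second, with 21.1%, placed them at 32.8 and -64.85 and the other 6 between 2.69 and 10.7. Decidua markers summed to 38.2 to 56.6 CPM and blood markers to at most 3.34 CPM, except 19.5 CPM in vehicle clone 4 replicate 1.

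Of the few genes that passed the test across both conditions, most lay in the mitochondrial genome and were higher in clone 8. When edgeR's quasi-likelihood test was run on an additive model of clone and treatment, 4 of 18321 tested genes (0.0218%) passed an adjusted p of 0.05 (Benjamini-Hochberg over all tested genes). The genes mt-Rnr1, mt-Nd6 and mt-Rnr2 were higher in clone 8, and the low-level pseudogene Gm7729 was lower, which is 0.0164% and 0.00546% of the tested genes. An unadjusted p under 0.05 was reached by 3658 genes, of which 2035 (11.1% of those tested) stood higher and 1623 (8.86%) lower in clone 8. The spread around the additive fit was larger than within the 4 groups, with a biological coefficient of variation of 0.321 against 0.266.

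The mitochondrial genome encodes 13 proteins of the respiratory chain, 22 transfer RNAs and the 2 RNAs of the mitochondrial ribosome. The table counted 7 of the 13 messenger RNAs well enough to test; the other 6, among them mt-Co2, mt-Co3 and mt-Atp6, stood at 5 counts or fewer in every library. Levels of different mitochondrial genes are therefore not comparable with each other, and nuclear copies of mitochondrial sequence could share reads with them. Coordinates are those of the GENCODE annotation of GRCm38, the assembly that mm10 also names.

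The gene mt-Rnr1, which makes the 12S ribosomal RNA (mitochondrial chromosome M, bases 70 to 1024, plus strand), measured 82.1 and 161 CPM in vehicle clone 4 against 312 and 417 CPM in vehicle clone 8. Under 4OHT the values were 89.2 and 101 CPM for clone 4 against 404 and 428 CPM for clone 8. Every clone 8 library lay above every clone 4 library. The mean was 390.2 ± 53.2 CPM in clone 8 and 108 ± 35.8 CPM in clone 4 (SD, n = 4 each). The log2 fold change, by edgeR's quasi-likelihood test, came to 1.86 with an SE of 0.21 (adjusted p 0.0402).

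The larger ribosomal RNA, mt-Rnr2 (16S, M, bases 1094 to 2675, plus strand), stood at 411 and 772 CPM against 1455 and 1681 CPM in vehicle, clone 4 before clone 8. After 4OHT it reached 374 and 522 CPM against 1888 and 1591 CPM. Its libraries did not overlap between the clones either, and its log2 fold change was 1.68 (SE 0.21, adjusted p 0.0402). The gene mt-Nd6 encodes a subunit of complex I and is the 1 messenger RNA here that lies on the minus strand (M, bases 13552 to 14070). In vehicle the libraries gave 33.4 and 50 CPM for clone 4 against 109 and 137 CPM for clone 8, and with 4OHT 25.6 and 34.9 against 184 and 126 CPM. The clones did not overlap, and the log2 fold change was 1.97 with an SE of 0.23 (adjusted p 0.0402). Whether the counting used strand is not given in the sources used here, so reads of the opposite transcript cannot be told apart from those of mt-Nd6.

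Of the other tested messenger RNAs, mt-Nd2 had a log2 fold change of 1.76 (adjusted p 0.075) without overlap between the clones. So had mt-Co1 (1.75), mt-Nd4 (1.63) and mt-Nd5 (1.52), at an adjusted p of 0.142 each. The genes mt-Nd1 and mt-Cytb overlapped between the clones in vehicle: mt-Cytb had 943 and 1481 CPM there for clone 4 against 1072 and 1472 CPM for clone 8. In the 4OHT libraries the levels were 676 and 1764 CPM for clone 4 against 4489 and 4016 CPM for clone 8. All 7 messenger RNAs had a positive difference, with a median of 1.63 against 0.03 over all tested genes. Of the 7, 1 passed the test, as did both ribosomal RNAs. These are the same 3 genes that make up the 0.0164% of all genes called higher, so that share is no separate comparison. The mitochondrial lists were also chosen after these values were seen.

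The difference was larger after 4OHT for the messenger RNAs, with a median of 0.86 in vehicle and 2.25 in 4OHT, and 1 of them, mt-Nd5, passed the test of the difference between conditions (1.58, adjusted p 0.0473 by edgeR's quasi-likelihood test). Mitochondrially encoded genes took 0.248 and 0.417% of the counts in vehicle clone 4, 0.470 and 0.619% in vehicle clone 8, 0.205 and 0.408% in 4OHT clone 4, and 1.35 and 1.19% in 4OHT clone 8. Transcripts of the GENCODE class TEC, which holds transcripts that still await experimental support, were also highest in both 4OHT libraries of clone 8, at a summed 816 and 506 CPM against 185 to 337 CPM in the other 6. In vehicle the TEC sums were 296 and 337 CPM for clone 4 and 333 and 298 CPM for clone 8. The genes mt-Rnr1, mt-Rnr2, mt-Nd2 and mt-Nd6 passed the test within vehicle. The part of the TEC transcripts in the mitochondrial difference was not tested.

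Each of the 3 mitochondrial calls was lost when any library other than vehicle clone 4 replicate 2 was left out, and for mt-Rnr1 the log2 fold change then ran from 1.73 to 1.98, at adjusted p 0.0645 to 0.223. Without vehicle clone 4 replicate 2 it was 2.13 (adjusted p 0.000891). With the legacy option of edgeR's quasi-likelihood fit 0 genes were called (mt-Rnr1 adjusted p 0.0647), and 2921 genes had an unadjusted p under 0.05. With the trends of transcript length and GC content removed, 2 genes were called, 1 higher and 1 lower. Both were among the 4 calls above, so 1 of the 3 mitochondrial calls remained. DESeq2 called 666 genes, 333 each way.

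**Figure D1:**
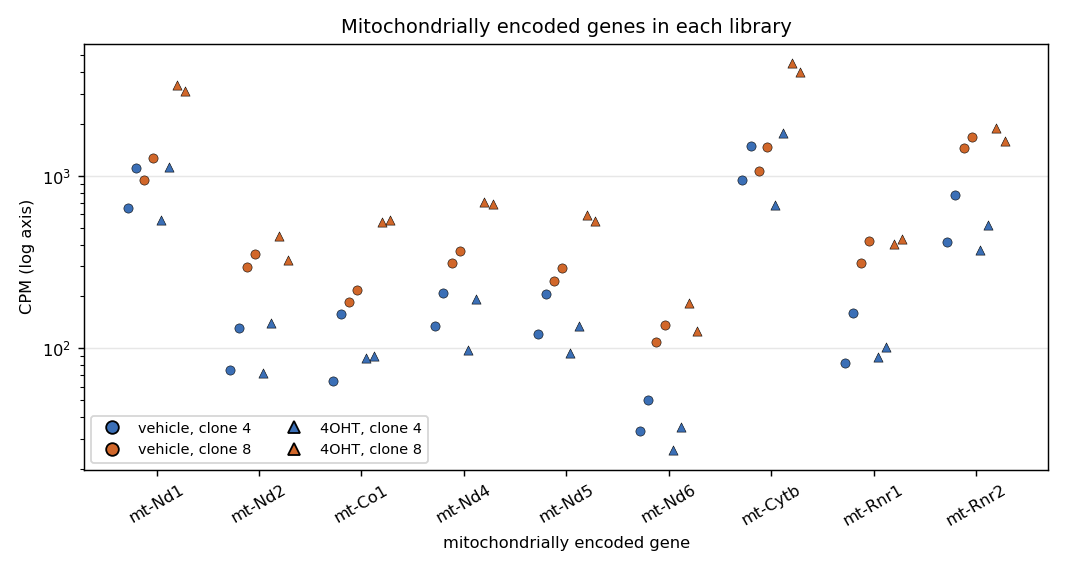
CPM (log axis) of the 7 mitochondrially encoded messenger RNAs and 2 ribosomal RNAs tested, 1 point per library; colour gives the clone and shape the condition. In mt-Rnr1, mt-Rnr2, mt-Nd2, mt-Co1, mt-Nd4, mt-Nd5 and mt-Nd6 all 4 clone 8 points lie above all 4 clone 4 points, while mt-Nd1 and mt-Cytb overlap in vehicle.

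The fourth call, Gm7729, measured 0.910 and 0.953 CPM in vehicle clone 4 against 0.223 and 0.271 CPM in vehicle clone 8. With 4OHT the pairs were 3.03 and 2.20 CPM for clone 4 against 0.337 and 0.334 CPM for clone 8. Behind these values lay 32 to 169 counts in clone 4 and 8 to 21 counts in clone 8. Its log2 fold change was -2.68 (SE 0.36, adjusted p 0.0402 by edgeR's quasi-likelihood test). It lost the call in each fit that left out 1 library (adjusted p 0.0621 to 0.187), and as an unprocessed pseudogene it can share reads with its parent gene. Its level is below the median of tested genes, so it is named for being 1 of the 4 calls.

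Because few genes passed in the additive fit, consistency between the conditions was also read from the libraries. A gene was counted as apart when both clone 8 libraries lay on the same side of both clone 4 libraries in vehicle and again, on the same side, in 4OHT. With so few libraries such an order can also arise without a clone difference, so these counts describe the libraries and are not a test. Of the tested genes 2583 (14.1%) were apart, 1120 (6.11%) higher and 1463 (7.99%) lower in clone 8. In 1519 genes (8.29%) all 4 clone 8 libraries lay beyond all 4 clone 4 libraries, 632 (3.45%) higher and 887 (4.84%) lower. Among the genes apart, 1626 were above the median level and had a named locus. The 12 with the lowest p in each direction are described with their groups below. There, a gene said to rise or fall within a condition stood higher or lower in clone 8 than in clone 4. Such wording does not describe a change with 4OHT.

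**Figure D2:**
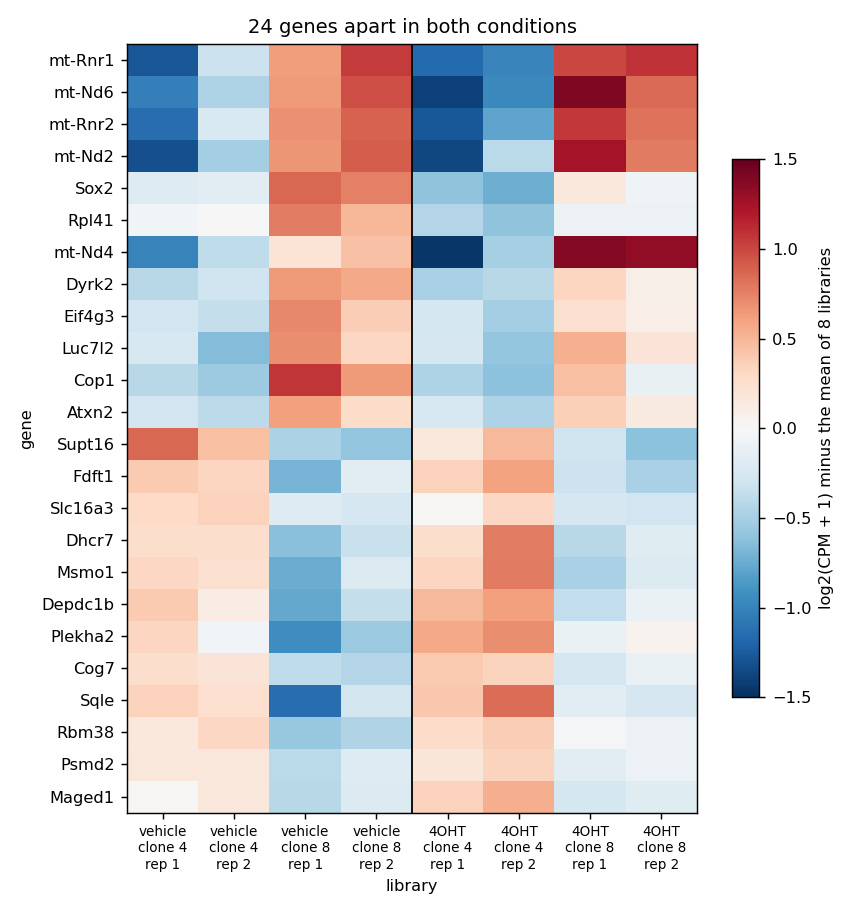
Log2(CPM + 1) of the 24 named genes apart in both conditions, each minus its mean over the 8 libraries, with libraries in columns (vehicle left of the line, 4OHT right of it) and colour limits at -1.5 and 1.5. The 12 upper genes are higher and the 12 lower genes lower in both clone 8 libraries than in both clone 4 libraries of the same condition.

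Sterol synthesis genes stood mostly lower in clone 8. All 20 tested enzymes had a negative difference in the additive fit, from -0.90 (Sqle) to -0.06 (Pmvk), with a median of -0.57 against 0.03 over all tested genes. Of the 20, 13 were apart in both conditions, all lower, where 7.99% of all genes were. None passed the adjusted threshold in the additive fit of edgeR, and 15 had an unadjusted p under 0.05, where 8.86% of all genes did in that direction; DESeq2 and the other counts over all genes are given with the mitochondrial calls above.

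The step that commits the pathway to sterols is taken by Fdft1, the squalene synthase (chromosome 14, 63145150 to 63179578, minus strand). It measured 196 and 186 CPM in vehicle clone 4 against 90.7 and 131 CPM in vehicle clone 8. Under 4OHT the values were 189 and 226 CPM for clone 4 against 119 and 106 CPM for clone 8. The clones did not overlap, at 199 ± 18.3 CPM in clone 4 and 112 ± 17.5 CPM in clone 8 (SD, n = 4 each). The additive fit of edgeR gave a log2 fold change of -0.83, SE 0.13, at an adjusted p of 0.142. Within the conditions Fdft1 fell in clone 8 in both, by 0.78 in vehicle (adjusted p 0.0368) and by 0.88 in 4OHT (adjusted p 0.0345).

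Next in the pathway, Sqle, the squalene epoxidase, stood at 341 and 321 CPM in clone 4 and 121 and 222 CPM in clone 8 in vehicle, and at 356 and 479 against 238 and 226 CPM in 4OHT. Further down, Msmo1, which oxidises the C4 methyl groups of sterols, stood at 179 and 170.3 CPM against 85.6 and 124 CPM in vehicle and at 179.7 and 248 against 102 and 125 CPM in 4OHT. The last step of cholesterol synthesis belongs to Dhcr7, which stood at 59.0 and 59.0 CPM against 31.3 and 38.7 CPM in vehicle and at 59.3 and 84.2 against 36.4 and 43.3 CPM in 4OHT. None of these 3 overlapped between the clones, with log2 fold changes of -0.90 (SE 0.17), -0.83 (SE 0.15) and -0.81 (SE 0.15) and an adjusted p of 0.142 each in edgeR. Near the head of the pathway, the synthase gene Hmgcs1 did not overlap either, at 316 ± 43.7 CPM in clone 4 and 192 ± 49.0 CPM in clone 8 (SD, n = 4 each).

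Within vehicle, Fdft1 and Idi1 (-1.18, adjusted p 0.0307) passed the test lower in clone 8, and Ebp, the sterol isomerase, passed it higher (0.63, adjusted p 0.049). In vehicle 3.30% of all genes passed lower and 3.40% higher. Within 4OHT, Fdft1, Dhcr7, Msmo1, Acat2 and Ebp passed lower, where 1.83% of all genes did. Ebp thus stood on opposite sides in the 2 conditions: 30.3 and 28.8 CPM against 42.6 and 48.7 CPM in vehicle, and 47.3 and 54.7 against 25.8 and 28.8 CPM in 4OHT. Its difference between conditions passed the test (-1.53, adjusted p 0.0215). Pmvk also lay on opposite sides (0.33 and -0.43, neither past the threshold), and Acat2, Fdps, Mvk and Tm7sf2 overlapped between the clones in 1 condition.

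Relative to the mean of vehicle clone 4, the median enzyme stood at -0.82 and -0.37 on the log2 scale in the libraries of vehicle clone 8 and at -0.46 and -0.30 in those of 4OHT clone 8. In 4OHT clone 4 it stood at 0.10 and 0.46. The median difference of the list was -0.58 in vehicle and -0.64 in 4OHT, and -0.66 to -0.51 when each library was left out in turn.

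**Figure D3:**
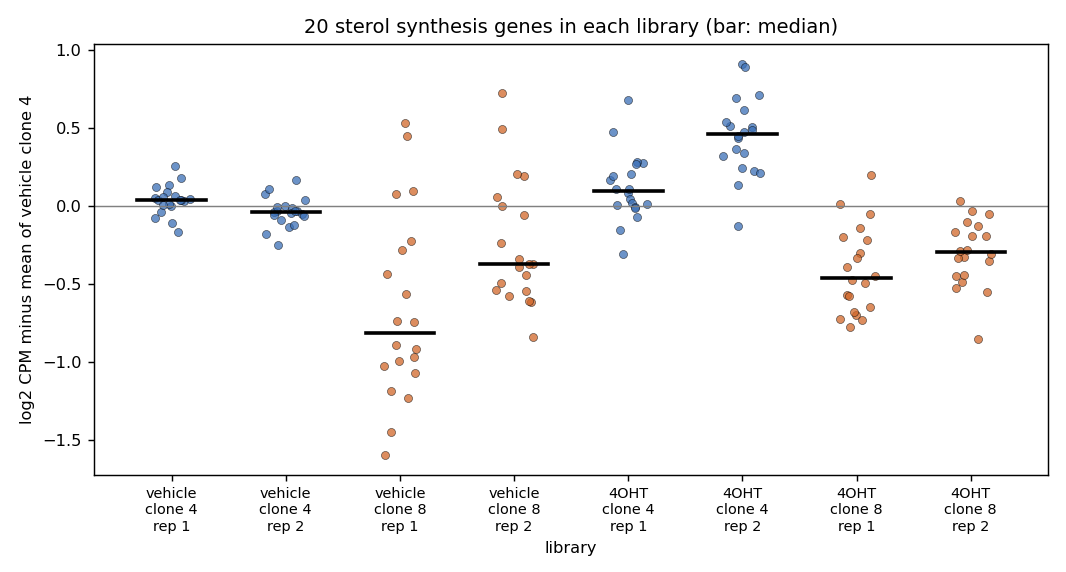
Log2 CPM of the 20 sterol synthesis genes in each library minus the gene's mean in the vehicle libraries of clone 4; points are genes and bars are medians. The medians of the 4 clone 8 libraries lie between -0.82 and -0.30, and those of the 4 clone 4 libraries between -0.04 and 0.46.

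Genes of sterol regulation and transport had the same sign. All 15 tested members of that list had a negative difference (median -0.33). Of these, 7 were apart, all lower, where 7.99% of all genes were. Insig1, which retains the SREBP proteins in the endoplasmic reticulum, differed by -0.72, Srebf1 by -0.45 and Srebf2 by -0.45, all apart and none past the threshold.

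Fatty acid synthesis showed 11 of 12 genes with a negative difference (median -0.41) and 5 apart, all lower, where 7.99% of all genes were. Acly, the ATP citrate lyase that supplies acetyl-CoA to both pathways, stood at 753 and 758 CPM against 259 and 492 CPM in vehicle and at 766 and 858 against 545 and 612 CPM in 4OHT. Within vehicle Acly was lower in clone 8 by 1.01 (adjusted p 0.0388 in edgeR), as were Elovl5 (-0.55) and Fads1 (-0.56). Within 4OHT the desaturase gene Scd1 was lower in clone 8 by 0.74 (adjusted p 0.0434 in edgeR). Fasn and Acaca, which build the carbon chain, stood at -0.24 and -0.02 in the additive fit.

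Promoters of these enzymes were searched for the letters of 2 motifs, the sterol regulatory element (TCACNCCAC) to which SREBP proteins bind, and the CCAAT box, bound by NF-Y. Windows of 300 bases around each start from RefSeq (GRCm38.p6) were searched on both strands, and neither motif contains the other. The first was found in 1 of the 15 sterol synthesis genes with an entry, Hmgcs1, in 2 of 18 glycolysis genes, in 0 of 11 genes of sterol regulation and 0 of 9 of fatty acid synthesis, and in 1.44% of all 27025 genes. The second was found in 14 of the 15 (93.3%) and in 41.1% of all genes. It was also found in 7 of 11 genes of sterol regulation, 6 of 9 of fatty acid synthesis, 7 of 18 of glycolysis and 15 of 17 of the cell cycle. These are matches of letters and not measured sites. Parts of 3 promoters of enzymes that were apart show them, with the motif in capitals: the sterol regulatory element of Hmgcs1 (chr13:119690174-119690273, plus strand, ending before the start site), and a CCAAT box each of Msmo1 (chr8:64733594-64733663, minus strand) and Dhcr7 (chr7:143830135-143830204, plus strand, where ATTGG is CCAAT on the other strand). The Dhcr7 stretch precedes 1 of 3 RefSeq starts of that gene, one that lies inside the annotated gene (start 143823145), and no CCAAT was found before the other 2 starts. The Hmgcs1 stretch also opens with such a match, left in lower case.
Hmgcs1: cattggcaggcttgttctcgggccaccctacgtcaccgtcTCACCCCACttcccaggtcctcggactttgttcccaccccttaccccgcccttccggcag
Msmo1: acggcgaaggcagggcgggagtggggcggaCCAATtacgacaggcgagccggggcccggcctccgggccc
Dhcr7: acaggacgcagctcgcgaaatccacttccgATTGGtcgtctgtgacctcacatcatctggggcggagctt

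Among pluripotency factors Sox2 set the clones apart in both conditions. Sox2 (chromosome 3, 34650405 to 34652461, plus strand) measured 15.1 and 15.4 CPM in vehicle clone 4 against 32.7 and 30.2 CPM in vehicle clone 8. In the 4OHT libraries the levels were 11.2 and 10.1 CPM for clone 4 against 19.8 and 16.6 CPM for clone 8. All clone 8 libraries lay above all clone 4 libraries. It passed edgeR's quasi-likelihood test within vehicle (1.04, adjusted p 0.0218) and within 4OHT (0.77, adjusted p 0.0434), and in the additive fit the log2 fold change was 0.91 (SE 0.14, adjusted p 0.142).

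The other core factors differed less. Pou5f1 (0.24) and L1td1 (0.34) were apart on the higher side, Nanog overlapped between the clones in vehicle, and Sall4, Utf1 and Tdgf1 stood between -0.20 and -0.07. Of 11 naive factors, Zfp42 (-0.75) and Tfcp2l1 (-0.33) were apart on the lower side, where 7.99% of all genes were. Esrrb, a nuclear receptor of naive cells and of trophoblast, fell in vehicle clone 8 from 74.2 and 63.7 CPM to 18.2 and 20.8 CPM (-1.83, adjusted p 0.00877). After 4OHT its libraries overlapped, at 77.9 and 79.9 CPM against 80.9 and 79.3 CPM.

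Of 17 genes of the formative and primed epiblast, 4 were apart higher in clone 8, namely Foxd3 (1.79), Sox4 (0.93), Zic2 (0.80) and Zic5 (0.47), and 1 was apart lower, Sall2 (-0.49). Of all tested genes 6.11% were apart higher and 7.99% lower. Foxd3, a repressor of naive genes, was low in all libraries: 0.776 and 1.52 CPM against 4.26 and 5.48 CPM in vehicle and 1.20 and 0.806 against 4.01 and 1.67 CPM in 4OHT. Sox4 (1.19, adjusted p 0.0270), Zic2 (0.96, adjusted p 0.0488) and Pou3f1 (0.87, adjusted p 0.0227) rose in vehicle. Fgf5, Otx2, Dnmt3a and Dnmt3b, which are abundant in this layer, stood between -0.18 and 0.09. Of the primitive streak list, 2 of 13 genes were apart, Nkx1-2 (0.56) and Eomes (0.30), both higher and neither past the threshold, a share near the 14.1% of all genes.

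Genes of the ERK pathway were read in both clones because 4OHT acts on it. Among 14 feedback regulators and targets, the inhibitors Spred1 (0.56), Spred3 (0.60) and Il17rd (0.38) were apart higher, and Spry1 (-0.48) and the ETS factor Etv5 (-0.43) apart lower. The shares over all tested genes were 6.11% apart higher and 7.99% lower. Of 13 immediate early genes only Srf, the serum response factor, was apart (0.85): 9.47 and 11 CPM against 31.2 and 23.6 CPM in vehicle and 12 and 10.6 against 14.8 and 13.8 CPM in 4OHT. It rose in vehicle (1.43, adjusted p 0.018), while Fosl1 fell there (-2.55, adjusted p 0.0112) and stood at 0.12 in 4OHT. Braf, a kinase upstream of ERK, and Esr1, whose product binds 4OHT, stood at -0.10 and 0.08 in the additive fit, neither past the threshold. Esr1 stood at 0.187 to 0.723 CPM in the vehicle libraries of both clones and at 5.92 to 6.76 CPM in the 4OHT libraries of both. If the engineered line carries sequence shared with Esr1, its reads cannot be told apart from those of the gene itself. The part of such reads was not tested.

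Supt16, a subunit of the histone chaperone FACT (chromosome 14, 52160414 to 52197416, minus strand), measured 275 and 207 CPM in vehicle clone 4 against 108 and 99.9 CPM in vehicle clone 8. With 4OHT the pairs were 170.1 and 211 CPM for clone 4 against 123 and 97.6 CPM for clone 8. The clones did not overlap, at 216 ± 43.5 and 107 ± 11.4 CPM (SD, n = 4 each). Supt16 fell in clone 8 within vehicle by 1.21 (adjusted p 0.0181) and within 4OHT by 0.79 (adjusted p 0.044), with -1.0 (SE 0.15, adjusted p 0.132) in the additive fit of edgeR. On the higher side, the named gene Luc7l2, a splicing factor, and the list member Clk2, a kinase of splicing factors, stood at 0.89 and 1.13; both rose in vehicle (adjusted p 0.0414 and 0.0319). Of 24 SR proteins and related kinases, 4 were apart higher and 2 apart lower, where 6.11% and 7.99% of all genes were, and the list median was 0.02.

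Most genes of the ribosome had a positive difference, which was larger in vehicle. Rpl41, a protein of the large ribosomal subunit, measured 871 and 891 CPM in vehicle clone 4 against 1534 and 1269 CPM in vehicle clone 8, and 663 and 592 CPM against 848 and 843 CPM in 4OHT. It rose in vehicle (0.67, adjusted p 0.0211) and stood at 0.43 in 4OHT (adjusted p 0.0599). Of 88 cytosolic ribosomal protein genes, 81 had a positive difference (median 0.26) and 16 were apart higher and 1 lower, where 6.11% and 7.99% of all genes were. Without vehicle clone 8 replicate 1 the median was 0.14. It was 0.47 in vehicle, where 24 passed the test, all higher (3.40% of all genes did), and 0.06 in 4OHT; 1 of the 88 passed the test of the difference between conditions. Many ribosomal protein genes have processed copies that can share their reads.

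Transcript length went with the same contrast. Among protein-coding genes in vehicle, ranked by transcript length into 4 bins, the bin of shortest transcripts had a median difference of 0.18 and the other bins -0.15 to -0.07; in 4OHT the shortest bin stood at -0.10 and the longest at 0.11. Of the 88 ribosomal protein genes, 71 lay in the shortest bin. With the trend of each library with transcript length and GC content removed, the list's median in the additive fit was 0.14. The 76 nuclear-encoded subunits of the respiratory chain, 64 of them in the shortest bin, had a median of 0.45 in vehicle (34 passed higher, where 3.40% of all genes did, and 1 lower) and -0.15 in 4OHT. Their additive median was 0.14, but -0.04 with the trend removed, 0.01 without vehicle clone 8 replicate 1, and 0.05 without either library of vehicle clone 4. The sterol synthesis list had 3 genes in the shortest bin and stood at -0.59 with the trend removed. All 7 tested mitochondrially encoded messenger RNAs lay in the shortest bin. Over all alternatives, removal of the trend among them, their lowest median in the additive fit was 1.26.

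Eif4g3 and Atxn2 were also apart on the higher side: Eif4g3 (0.73) encodes a scaffold of translation initiation and Atxn2 (0.71) an RNA-binding protein. Each rose in vehicle (adjusted p 0.0267 and 0.0342) and neither passed in 4OHT. The kinase gene Dyrk2 (0.89) and the ubiquitin ligase gene Cop1 (1.10) did likewise, with adjusted p-values of 0.0284 and 0.0239 in vehicle. RNAs that host small nucleolar RNAs in their introns, named Snhg, had a positive difference in 13 of 14 (median 0.61). Of the 14, 7 were apart, all higher, where 6.11% of all genes were. In 4OHT 5 of the 14 rose, where 2.04% of all genes did, among them Snhg6 (0.82, adjusted p 0.0323 in edgeR). The part of the higher TEC sums of the same libraries was not tested.

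Glycolysis, folding and cell cycle genes had mostly negative differences. Slc16a3, which exports lactate, stood at 643 and 662 CPM against 456 and 437 CPM in vehicle and at 529 and 647 against 439 and 428 CPM in 4OHT, without overlap (-0.49, SE 0.09); it fell in vehicle (-0.55, adjusted p 0.0301). Of 19 glycolysis genes 18 had a negative difference (median -0.23). Of the 19, 6 were apart, all lower, where 7.99% of all genes were, among them Eno1 (-0.25), Pkm (-0.23) and Pfkl (-0.36). Hk1 (-1.30), Pfkp (-1.15) and the glucose transporter gene Slc2a1 (-0.83) fell in vehicle and stood at 0.14, 0.01 and 0.04 in 4OHT. The test of the difference between conditions was passed by Hk1 and Slc2a1 of the 19 genes, where 0.928% of all genes did in that direction.

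In the endoplasmic reticulum, all 15 folding genes had a negative difference and 6 were apart, where 7.99% of all genes were apart lower. Hspa5, the chaperone BiP, stood at 1395 and 1280.5 CPM against 766 and 1089 CPM in vehicle and at 1461 and 2065 against 1046 and 943 CPM in 4OHT (-0.68). Within 4OHT it passed lower in clone 8 (-0.83, adjusted p 0.0449 in edgeR). The other genes of that compartment were mixed. Of 11 translocation genes 5 had a positive difference: Sec61a1 of the channel was apart lower (-0.47), while Sec63 (1.05) and Sec61b (0.55) rose in vehicle. Of 15 glycosylation genes 5 had a positive difference: Stt3a, a catalytic subunit, was apart lower (-0.48) and its paralog Stt3b apart higher (0.49). Of 38 proteasome subunits, 24 had a negative and 14 a positive difference, with a median of -0.04 (0.13 in vehicle and -0.22 in 4OHT, and 0.01 in the additive fit without 4OHT clone 8 replicate 2); 9 were apart, all lower, where 7.99% of all genes were, among them Psmd1 (-0.47) and Psmd2 (-0.42). Psmd2 fell in vehicle (-0.47, adjusted p 0.0345). Other named genes on this side were Cog7 of the Golgi tethering complex (-0.60), the RNA-binding protein gene Rbm38 (-0.56), Plekha2 (-0.79), Depdc1b (-0.84) and Maged1 (-0.54). Depdc1b was lower in clone 8 in both conditions (adjusted p 0.0495 in vehicle and 0.0497 in 4OHT by edgeR). Rbm38, Cog7 and Plekha2 passed lower in clone 8 within vehicle, and Maged1 did so within 4OHT.

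Of 20 cell cycle genes, 18 had a negative difference (median -0.25), 9 were apart lower and 1, Mki67 (0.44), apart higher. Over all tested genes 7.99% were apart lower and 6.11% higher. In edgeR 6 of the 20 fell in vehicle, where 3.30% of all genes did. They included the DNA replication factors Mcm2 (-0.52, adjusted p 0.0321), Mcm4 (-0.90, adjusted p 0.0198) and Cdc6 (-0.67, adjusted p 0.035) and the cyclin gene Ccnb1 (-0.53, adjusted p 0.0263). Of 22 genes of the Atf4 stress response, 19 had a positive difference (median 0.34). Ddit3 (1.43), Pck2 (0.90) and Cebpb (0.89) were apart higher, where 6.11% of all genes were. Their replicates lay far from each other: Ddit3 stood at 24.6 and 9.46 CPM in vehicle clone 8 and at 6.45 and 16.4 CPM in 4OHT clone 8. Without 4OHT clone 8 replicate 2 the median of that list was 0.13, and without vehicle clone 8 replicate 1 it was 0.18.

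**Figure D4:**
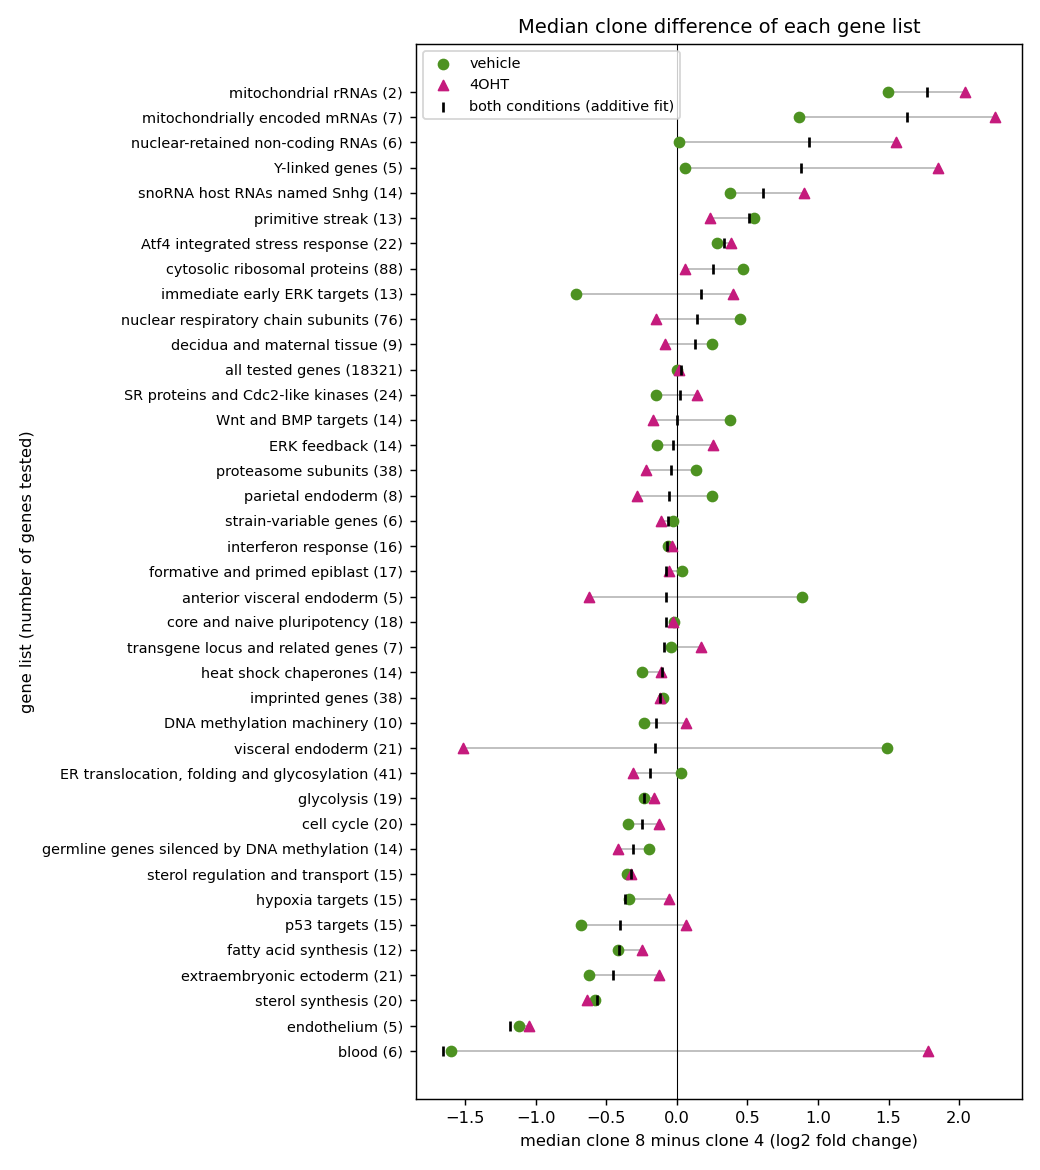
Median log2 fold change of clone 8 against clone 4 for each gene list with 5 or more tested genes and for the mitochondrial ribosomal RNAs, in vehicle (circles), in 4OHT (triangles) and over both conditions in the additive fit (bars); numbers in brackets are tested genes. Sterol synthesis stands at -0.58 and -0.64 in the 2 conditions, while visceral endoderm stands at 1.49 in vehicle and -1.52 in 4OHT.

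Within each condition more genes passed than in the additive fit, and most of them did so in 1 condition. In vehicle 1227 genes (6.70%) differed between the clones, 623 higher and 604 lower in clone 8, and in 4OHT 709 genes (3.87%) did, 373 (2.04%) higher and 336 lower. The contrasts compare different libraries, but both use the spread estimated over all 8 libraries, so their calls are not independent. The 2 sets of calls had 42 genes in common. These are 3.42% of the genes called in vehicle, where 3.87% of all genes were called in 4OHT. They are 5.92% of the genes called in 4OHT, where 6.70% of all genes were called in vehicle. The overlap was thus no larger than the shares over all genes, and most of it was of opposite sign. Of the 42, 5 were higher in both (Sox2, mt-Rnr1, mt-Rnr2, mt-Nd2 and mt-Nd6), 3 were lower in both (Supt16, Fdft1 and Depdc1b), and 34 had opposite signs. Over all tested genes the sign was the same in 9390 (51.3%).

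The count in vehicle was 0 without vehicle clone 4 replicate 1 or vehicle clone 8 replicate 1, 36 once vehicle clone 4 replicate 2 was left out, 71 and 78 without 4OHT clone 4 replicates 1 and 2, and 2394 and 2382 without 4OHT clone 8 replicates 1 and 2. The count in 4OHT was 0 without either vehicle clone 8 library or 4OHT clone 4 replicate 1, 25 without either vehicle clone 4 library, 3 without 4OHT clone 4 replicate 2 and 2210.0 without 4OHT clone 8 replicate 2; the legacy option gave 37.

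The genes of opposite sign included 3 of the visceral endoderm list, Hnf4a, Amn and Apom. Hnf4a, a transcription factor of that layer, measured 6.15 and 2.29 CPM in vehicle clone 4 against 16.8 and 22.7 CPM in vehicle clone 8, but at 26.1 and 24.7 CPM in 4OHT clone 4 and 4.16 and 7.12 CPM in 4OHT clone 8. It stood higher in clone 8 within vehicle and lower by 2.17 within 4OHT (adjusted p 0.0234 each by edgeR). The difference between the conditions was -4.37 (adjusted p 0.0116 by edgeR). Amn, which forms the cubilin receptor, and Apom, an apolipoprotein, did the same, at 1.57 and 1.78 in vehicle and -1.75 and -1.75 in 4OHT. Of 21 visceral endoderm genes 7 passed higher in vehicle and 6 lower in 4OHT, where 3.40% and 1.83% of all genes did. The test of the difference between conditions was passed by 10, all lower in 4OHT, where 1.67% of all genes did. Their summed level was 1024 and 654 CPM in vehicle clone 4, 2150 and 2131 CPM in vehicle clone 8, 2998 and 3397 CPM in 4OHT clone 4 and 593 and 1510 CPM in 4OHT clone 8. None of the 21 was apart in both conditions, and the list's median in the additive fit was -0.15; as single libraries were left out it ran from -0.65 (vehicle clone 4 replicate 2 left out) to 0.50 (4OHT clone 8 replicate 1 left out). Since this layer was to be removed by dissection, its residue and its expression cannot be told apart, and its part in other differences within 1 condition was not tested.

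Single genes at the head of each contrast followed these groups only in part. In 4OHT the lowest p-values on the lower side belonged to Slc13a4 (-2.74), Slc7a9 (-2.32) and Cldn2 (-2.45), a sulfate transporter, an amino acid transporter and a tight junction gene, each of which stood higher in vehicle clone 8 (1.12, 0.98 and 1.10). On the higher side they belonged to mt-Nd6, mt-Nd5 and Malat1, a nuclear non-coding RNA: 66.2 and 75.8 CPM in 4OHT clone 4 and 283 and 258 CPM in 4OHT clone 8, against 116 and 149 and 174 and 141 CPM in vehicle. In vehicle the lowest p-values on the higher side belonged to Alyref (1.58), an adaptor of messenger RNA export, Smad4 (1.57), the shared mediator of Nodal and BMP signals, and Ctdnep1 (2.03), a phosphatase of the nuclear envelope. Smad4 stood at 24 and 22.2 CPM against 78.6 and 58.8 CPM there, and at 22.1 and 23.2 against 28.1 and 24.8 CPM in 4OHT. On the lower side they belonged to Esrrb, Nup62cl (-1.42) and Bmp8b (-2.12).

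Extraembryonic ectoderm genes were lower in vehicle clone 8. Of 21, 8 passed lower and 1 higher in vehicle, where 3.30% and 3.40% of all genes did. The list median was -0.62 there and -0.13 in 4OHT. In the test of the difference between conditions 5 passed higher and 1 lower, where 0.928% and 1.67% of all genes did. The ligand gene Bmp8b, which has a close paralog, stood at 59.4 and 58.8 CPM against 11.4 and 15.9 CPM in vehicle and at 39.4 and 33.6 against 61.3 and 52.1 CPM in 4OHT. The transcription factor genes Tfap2c (-2.25), Gata3 (-1.86) and Elf5 (-1.86) fell with it in vehicle. The summed level of the list was 2276 and 1639 CPM in vehicle clone 4, 1171 and 1316 CPM in vehicle clone 8, 2191 and 2309 CPM in 4OHT clone 4 and 1910.2 and 1919 CPM in 4OHT clone 8. Esrrb, named above, is expressed in that tissue too. The part of residual tissue in these values was not tested.

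**Figure D5:**
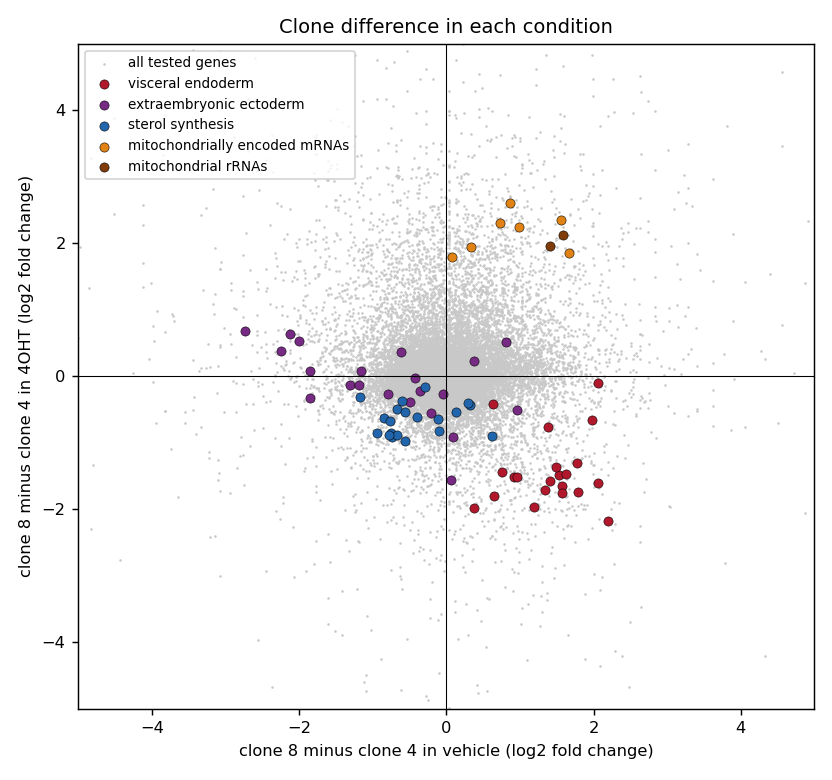
Log2 fold change of clone 8 against clone 4 in vehicle (x) and in 4OHT (y) for all tested genes (grey) and for 5 coloured gene lists; 209 genes lie outside the limits of -5 and 5. Sterol synthesis genes lie mostly at the lower left and mitochondrial genes at the upper right, while visceral endoderm genes lie at the lower right.

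The interaction, the clone difference in 4OHT minus that in vehicle, passed the test for 476 genes (2.60%), 170 higher and 306 lower. The count was 0 without vehicle clone 4 replicate 1, vehicle clone 8 replicate 1 or 2 or 4OHT clone 4 replicate 2, 5 without vehicle clone 4 replicate 2 or 4OHT clone 4 replicate 1, and 1399 and 1036 without 4OHT clone 8 replicates 1 and 2. Library totals as the scaling gave 49.5% of calls higher in place of 35.7%, and in the contrast of 4OHT alone 67.8% in place of 52.6%.

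The 680 X-linked tested genes had a median of -0.11 in the additive fit, while the medians of the autosomes ran from -0.04 to 0.10. In vehicle the X-linked median, -0.07, lay within the autosomal range of -0.10 to 0.09, and in 4OHT, at -0.13, below the range of -0.04 to 0.07. Of the X-linked genes 16 were apart higher and 79 lower, where 6.11% and 7.99% of all genes were. Together these are 14.0%, close to the 14.1% of all genes, but with a larger part on the lower side. Their summed level was 32459 and 32827 CPM in vehicle clone 4, 31998 and 31677 CPM in vehicle clone 8, 34909 and 35905 CPM in 4OHT clone 4 and 29873 and 29733 CPM in 4OHT clone 8. The sums did not overlap. Xist, the RNA of X inactivation, ran from 8.52 to 62.0 CPM and overlapped between the clones, and the summed Y-linked genes ran from 3.64 CPM (4OHT clone 4 replicate 2) to 133 CPM. The labels do not give the sex of the embryos, and the part of these levels in the X-linked difference was not tested.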

How the data were processed

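RNA was sequenced from pools of E5.5 epiblasts of clones 4 and 8. The deposited table holds raw counts per gene as the authors made them; reads were handled with bcl2fastq 2.19.1 and STAR 2.5.3a on mm10, per the submitters' processing notes. The counting program, its annotation release and its use of strand are not given in the sources used here. Of 52636 gene identifiers, 52403 matched a symbol. Genes with enough counts by filterByExpr (minimum count 10) were kept, which left 18321. They were scaled by TMM and fitted in R 4.3.3 with edgeR 4.0.16 (quasi-likelihood, legacy option off), once with clone and treatment as additive terms and once with 4 groups, which gave the clone difference within each condition and their interaction. The threshold was an adjusted p of 0.05 (Benjamini-Hochberg, all tested genes together). CPM values are TMM-scaled. The scripts were tested on simulated data.

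Named genes are those above the median level with a named locus whose clone 8 libraries lay on the same side of the clone 4 libraries in both conditions (12 lowest p each way), all genes called in the additive fit, the 3 lowest p each way within each condition, and members of the gene lists. The members and lists were chosen with earlier results of these data known, and the lists of mitochondrial, ribosomal protein, Snhg, respiratory chain, proteasome, endoplasmic reticulum, splicing and nuclear-retained RNAs were chosen after these values were seen. Replicate numbers do not pair the samples: the deviations of same-numbered libraries correlated at -0.030 to 0.095. Alternatives were other scalings and filters, DESeq2 1.42.0, the legacy option, a replicate block, each condition alone, protein-coding genes only, removal of length and GC trends, stricter thresholds, and leaving out each library. Some single genes of the lists are not reported here.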

Additional observations from a re-analysis of the deposited data

Results flagged for a closer look

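Among the clone 4 libraries, vehicle clone 4 replicate 1 lay far above the other 3 in blood markers, with a mean log2(CPM + 1) of 1.57 over the list. Of 86 values examined for such a gap, 1 was flagged, where chance flags about 1 in 20 groups, or 4.3 of them.

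For 11 named genes the clone difference in 4OHT minus that in vehicle passed edgeR's quasi-likelihood test (Benjamini-Hochberg). It was negative, so that clone 8 stood lower relative to clone 4 in 4OHT than in vehicle, for Alyref (-1.57, adjusted p 0.0243), Smad4 (-1.35, adjusted p 0.0347), Ctdnep1 (-1.92, adjusted p 0.0295), Slc13a4 (-3.87), Slc7a9 (-3.30) and Cldn2 (-3.55), the last 3 at an adjusted p of 0.0116. It was positive for Malat1 (1.68, adjusted p 0.0178), mt-Nd5 (1.58, adjusted p 0.0473), Nup62cl (1.08, adjusted p 0.0298), Esrrb (1.85) and Bmp8b (2.76), the latter pair at an adjusted p of 0.0116. These genes were picked for a low p within 1 condition.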

How the results depend on the processing

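The count of genes called in the additive fit was 4, and moved to 666 with DESeq2, 0 with the legacy option on, 0 among protein-coding genes, 2 with length and GC trends removed, 20 for the mean of the contrasts in the 4-group fit and 0 at an adjusted p of 0.01; leaving out 1 library gave 0 to 4. The count in vehicle, 1227, moved to 656 without a filter, 3064 with DESeq2, 2322 with vehicle libraries alone, 1 at 0.01 and 515 at a log2 difference of at least 1; leaving out 1 library gave 0 to 2394. The count in 4OHT, 709, moved to 264 without a filter, 428 with at least 10 counts, 37 with the legacy option, 373 among protein-coding genes, 4 with 4OHT libraries alone and 10 at 0.01; leaving out 1 library gave 0 to 2210.0. The interaction count, 476, moved to 210.0 without a filter, 1864 with DESeq2 and 0 at 0.01; leaving out 1 library gave 0 to 1399. The cause of these moves was not tested. Among protein-coding genes 36.7% of the 4OHT calls were higher, and 35.4% with trends removed, against 52.6%. With the replicate number as a block, the counts were 3, 1410.0, 492 and 546; the block is only a shared number here. No gene named for its p changed sign in the alternatives, each read in the contrast it was named for. Genes named only as members of a list were not read singly. List medians have no threshold, and some changed sign: that of visceral endoderm ran from -0.65 to 0.50, that of blood from -2.55 to 2.64 and that of immediate early genes from -0.31 to 0.37. Other scalings moved the median of all genes to at most 0.08 from 0.03.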

Other observations

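Of 38 tested imprinted genes 7 were apart, a share near the 14.1% of all genes. None passed edgeR's test in the additive fit, while 11 had an unadjusted p under 0.05. Of those 11, 5 stood higher and 6 lower in clone 8, where 11.1% and 8.86% of all genes did. Meg3, Rian, Zdbf2 and Rtl1 were apart higher in clone 8, and Peg3, Usp29 and Mkrn3 apart lower. Within 4OHT Rtl1 passed higher in clone 8 (1.77, adjusted p 0.0446 by edgeR's quasi-likelihood test), as did Meg3 (1.33, adjusted p 0.0323). Of all genes 2.04% passed higher there. Meg3, Rian and Rtl1 lie in 1 imprinted cluster. In vehicle, H19 passed higher and Grb10, Sfmbt2, Mest, Peg3 and Slc38a4 passed lower, where 3.40% and 3.30% of all genes did. Of 5 endothelial genes, Tek, Kdr and Pecam1 were apart lower in clone 8, where 7.99% of all genes were. None of them passed the threshold, and the list summed to 4.26 to 22.3 CPM.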
